A study of Mus musculus with 12 samples.

Results

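The 38 genes described here belong to the amino acid and one-carbon programme of the transcription factor ATF4. They are a list of gene names (ATF4-linked stress regulators, serine and one-carbon enzymes, amino acid transporters and tRNA synthetases) with no threshold on a measured value, drawn up when earlier results of these arrays were known. In the array annotation 37 of the 38 had a probe set that carried that gene alone, 82 probe sets in all among the 45037 of the array that are not controls. The proline enzyme gene Pycr1 had none and was not analysed here, and 2 Phgdh probe sets that also carry other genes were not used. All 37 genes were tested, through 79 of the 82 probe sets, within 12192 genes tested on the array as a whole.

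RNA came from mouse embryonic fibroblasts (connective tissue cells from mouse embryos, grown in medium with serum) and was measured on 12 Affymetrix arrays. The cells received AMN107 or no AMN107, and then IFNa (type I interferon), IFNg (type II interferon) or neither for 6 h. Without AMN107 the groups were DMSO, IFNa and IFNg, and with it they were AMN107, AMN107-IFNa and AMN107-IFNg, with 2 arrays in each. The drug, also named nilotinib, inhibits ABL tyrosine kinases. The labels give no AMN107 dose or duration, no genotype or passage of the cells, and no statement of what vehicle the interferon groups received. Both arrays of each group are called biological replicates, with no word on how the cultures were separated, so every p-value measures the spread between such arrays.

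ATF4 is a basic leucine zipper transcription factor whose mRNA is translated more efficiently when the initiation factor eIF2alpha is phosphorylated by one of its kinases (GCN2, PERK, HRI or PKR). With partners of the C/EBP family it binds C/EBP-ATF response elements in genes for amino acid synthesis, amino acid uptake and tRNA charging. It also induces genes that push the stress response towards recovery or towards cell death. Because ATF4 is controlled largely in translation, its mRNA and its protein can move apart, and arrays measure the mRNA.

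The core of the C/EBP-ATF response element is written TGATGNAA, where N is any base. Among RefSeq promoters (assembly GRCm38.p6, 250 bases before to 50 after each start) it was found on either strand in 9 of 37 member windows (24.3%) and in 1304 of all 32851 windows (3.97%). By gene these were 9 of the 31 members with a promoter entry (29.0%) and 4.51% of all genes. The stretches below show 3 genes that rose with AMN107 on average (Asns, Slc7a11, Vldlr) and 2 whose average did not pass the test (Atf3, Chac1). Capitals mark the match to TGATGNAA or to its reverse complement, TTNCATCA, and each run reads 5′ to 3′ on the gene's own strand.
Asns, chr6:7693210-7693262, minus strand: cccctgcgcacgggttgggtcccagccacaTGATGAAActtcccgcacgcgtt
Slc7a11, chr3:50443638-50443694, minus strand: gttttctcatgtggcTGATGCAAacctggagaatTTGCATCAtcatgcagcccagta
Vldlr, chr19:27216790-27216857, plus strand: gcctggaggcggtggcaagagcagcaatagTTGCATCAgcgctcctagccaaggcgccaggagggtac
Atf3, chr1:191183406-191183473, minus strand: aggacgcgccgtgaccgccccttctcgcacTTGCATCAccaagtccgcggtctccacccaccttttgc
Chac1, chr2:119351019-119351086, plus strand: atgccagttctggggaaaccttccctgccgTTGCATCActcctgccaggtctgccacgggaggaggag
In Slc7a11 the window held 2 matches, 1 in each orientation, with 11 bases between them. The other members with a match were Nupr1, Trib3, Slc1a4 and Pycr1. A match is a run of letters and not a measured binding site. The 8 tested members with a match had a median averaged AMN107 effect of 0.36 on the log2 scale (5 higher, 1 lower), against 0.37 for the 22 tested members with a promoter entry and no match (15 higher, 3 lower).

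Most members had higher signals on the AMN107 arrays in all 3 interferon states. Without interferon 25 of 37 members rose and 2 fell with AMN107, where 20.7% of all genes rose and 14.0% fell. With IFNa 17 rose and 2 fell (11.3% and 14.7% of all genes), and with IFNg 22 rose and 1 fell (13.4% and 5.76%). Calls are limma tests with a Benjamini-Hochberg adjusted p under 0.05 over all 12192 genes, on log2(signal + 8.66). All effects below are differences on that log2 scale, and folds are ratios of signal + 8.66. For a dim gene that fold understates the ratio of the signals themselves.

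The median member effect was 0.51 without interferon, 0.29 with IFNa and 0.42 with IFNg, against 0.02, -0.01 and 0.01 over all genes tested. In the effect averaged over the 3 states 27 members rose and 4 fell, where 26.0% of all genes rose and 22.0% fell. The median of that averaged effect was 0.42 for the members and -0.00 for all genes. The 17 members that rose in each of the 3 states made up 45.9% of the 37, while 6.20% of all genes did so. Ddit4 fell in each state, as did 2.94% of all genes. Rises of at least 2-fold were seen for 7 members without interferon (2.17% of all genes), 5 with IFNa (1.12%), 5 with IFNg (1.08%) and 5 on average (1.01%). For 18 members all 6 AMN107 arrays lay above all 6 arrays without it (12.6% of all genes), and for Ddit4 they all lay below (8.12%). In bulk RNA a change in the share of cells of a type and a change in RNA per cell cannot be told apart.

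**Figure D1:**
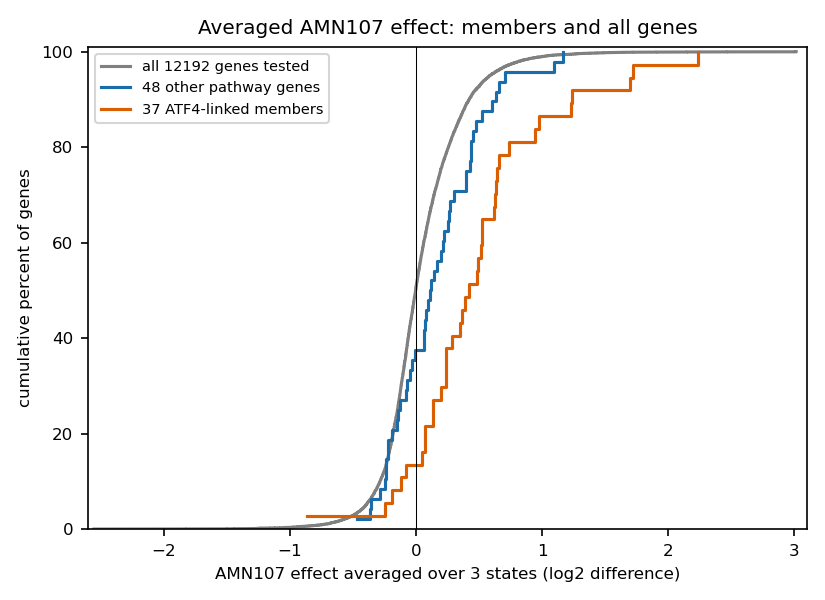
Cumulative percent of genes (vertical axis) at or below a given averaged AMN107 effect (horizontal axis, log2 difference) for the 37 members, 48 other genes of the pathway and all 12192 genes tested. The member curve lies to the right of the all-gene curve over most of its length, with medians of 0.42 and -0.00, and its lowest step is Ddit4 at -0.87.

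The arrays were alike in median signal (20.6 to 22.7) but not in mean signal trimmed by 2% at each end. That trimmed mean was 108.4 to 110.8 with AMN107 and 100.4 to 108.0 on the 5 arrays without it other than IFNa replicate 2. With DMSO it was 100.4 and 101.3, and on IFNa replicate 2 it was 113.5. IFNa replicate 2 stood apart, with a GAPDH 5'/3' signal ratio of 0.0252 against 1.07 to 1.16 on the other 11. Without the array labelled IFNa replicate 2 more members were called in each of the 3 states and on average. That fit left 1 array in the IFNa group, and the matching shares of all genes are not given here. The increase is therefore not read as a result about the members. In a fit of the IFNa and AMN107-IFNa arrays alone only 2 members were called with IFNa, both higher. For that fit too the matching share of all genes is not given here. The GAPDH ratio was 1.12 to 1.16 on the AMN107 arrays and 1.07 to 1.10 on the 5 others. The actin 5'/3' ratio was 0.676 and 0.712 with DMSO, 0.791 and 0.795 with IFNg alone and 0.798 to 0.830 with AMN107. With IFNa alone it was 0.696 and 0.212. The LysX labelling spike was 59.6 and 66.2 with DMSO and 36.1 to 41.4 with AMN107. With IFNg alone the spike was 36.1 and 40.6, as low as with AMN107, and with IFNa alone 45.4 and 81.1. The part of the trimmed mean, the 5'/3' ratios or the spike in these results was not tested. Of 10 fibroblast markers 8 were tested. Their list's summed signal was 9450.0 to 11536 without AMN107 and 7041 to 7303 with it. S100a4 and Vim had the highest mean signals of the list (3532 and 3800). In the averaged effect Col3a1 was at -2.34, S100a4 at -1.26, Col1a2 at -0.28, Col1a1 at -0.23 and Fn1 at 0.62. Vim (0.12), Pdgfra (-0.05) and Dcn (0.04) did not pass. The part of these marker differences in the member results was not tested. The epithelial list (3 of 6 genes past the filter on low signals) summed to 145 to 190.0 without AMN107 and 113 to 137 with it, with Krt8 at -0.67. The leukocyte list (4 of 7) summed to 280.4 to 308 and 239 to 302, the endothelial list (1 of 6) to 77.2 to 93.6 and 75.5 to 88.2, and the neuron list (4 of 5) to 139 to 205 and 169 to 200.1, with Map2 at 0.56. Their part was not tested either.

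Quantile normalization changed the balance of higher and lower calls over all genes more than over the members in 3 of the comparisons. For AMN107 without interferon it gave 1684 genes higher and 2633 lower in place of 2529 and 1708, while the members gave 19 higher and 3 lower. With IFNg it gave 1224 and 984 in place of 1632 and 702 (members 20 and 1), and for the average 2555 and 3510 in place of 3174 and 2683 (members 24 and 4). With IFNa the members gave 17 and 2 under both.

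Among the 7 stress transcription factors 5 rose in the averaged effect and none fell, with a median of 0.24. Atf4 itself had signals of 2755 and 2853 with DMSO, 3019.6 and 2912 with IFNa, 3399.6 and 3266 with IFNg, 4593 and 4241 with AMN107, 4305 and 4231 with AMN107-IFNa, and 4347 and 4410.1 with AMN107-IFNg. Every AMN107 array lay above every array without it, and the IFNg arrays lay above the DMSO arrays. The AMN107 effect was 1.57-fold without interferon, 1.44-fold with IFNa and 1.31-fold with IFNg (log2 0.65, 0.52 and 0.39). Averaged, it was 0.52 (SE 0.03, limma adjusted p = 9.44e-07). The gene has 2 other tested probe sets, which gave -0.12 and 0.11. With the mean over its probe sets the Atf4 call was lost in each state (0.21, 0.14 and 0.16, limma adjusted p = 0.0852, 0.277 and 0.23).

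Atf5, a close relative linked to mitochondrial stress, had signals of 285 and 305 with DMSO, 344 and 138 with IFNa, 288 and 225 with IFNg, 869.7 and 840.0 with AMN107, 867 and 849.8 with AMN107-IFNa, and 852 and 775 with AMN107-IFNg. The highest array without AMN107 read 344 and the lowest with it 775, with IFNa replicate 2 the lowest of all. Its averaged rise was 3.24-fold (log2 1.69, SE 0.17, limma adjusted p = 2.46e-05), and the effect was 1.51, 1.93 and 1.64 in the states without interferon, with IFNa and with IFNg. Ddit3, which encodes CHOP, a factor tied to cell death under lasting stress, had signals of 167 and 148 with DMSO, 208 and 136 with IFNa, 118 and 128 with IFNg, 366 and 342 with AMN107, 372 and 377 with AMN107-IFNa, and 366 and 334 with AMN107-IFNg. The groups with and without AMN107 did not overlap. Ddit3 rose 2.18-fold without interferon, 2.16-fold with IFNa and 2.73-fold with IFNg, and by 1.23 on average (SE 0.09, limma adjusted p = 3.15e-06).

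On the probe sets used for them, the other 4 factors of this kind moved less. Cebpg and Nupr1, a dimer partner of ATF4 and a small stress-induced chromatin protein, rose by 0.24 each on average, Nupr1 only narrowly (limma adjusted p = 0.0479). Other probe sets of Cebpg gave 0.77 and 0.63, and both passed. The one at 0.63 exceeded the array median on 6 arrays, all with AMN107. In the fit of single probe sets the same Nupr1 probe set did not pass, while its other one did (0.34). Atf3, a repressor that restrains inflammatory genes, gave 0.07 and Cebpb, a factor of inflammation and fat cell formation, 0.13, and neither passed on average. Both rose with AMN107 in the absence of interferon, Atf3 by 0.28 and Cebpb by 0.51, and gave values from -0.07 to -0.01 in its presence. A second Cebpb probe set gave 1.18 on average and passed, so the result for this gene depends on the probe set. Its AMN107 effect was 1.81 without interferon, 1.72 with IFNa and 0.01 with IFNg, and it rose by 1.90 with IFNg alone. Its interaction of AMN107 and IFNg was -1.80 (limma adjusted p = 0.0344 over all tested probe sets).

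**Figure D2:**
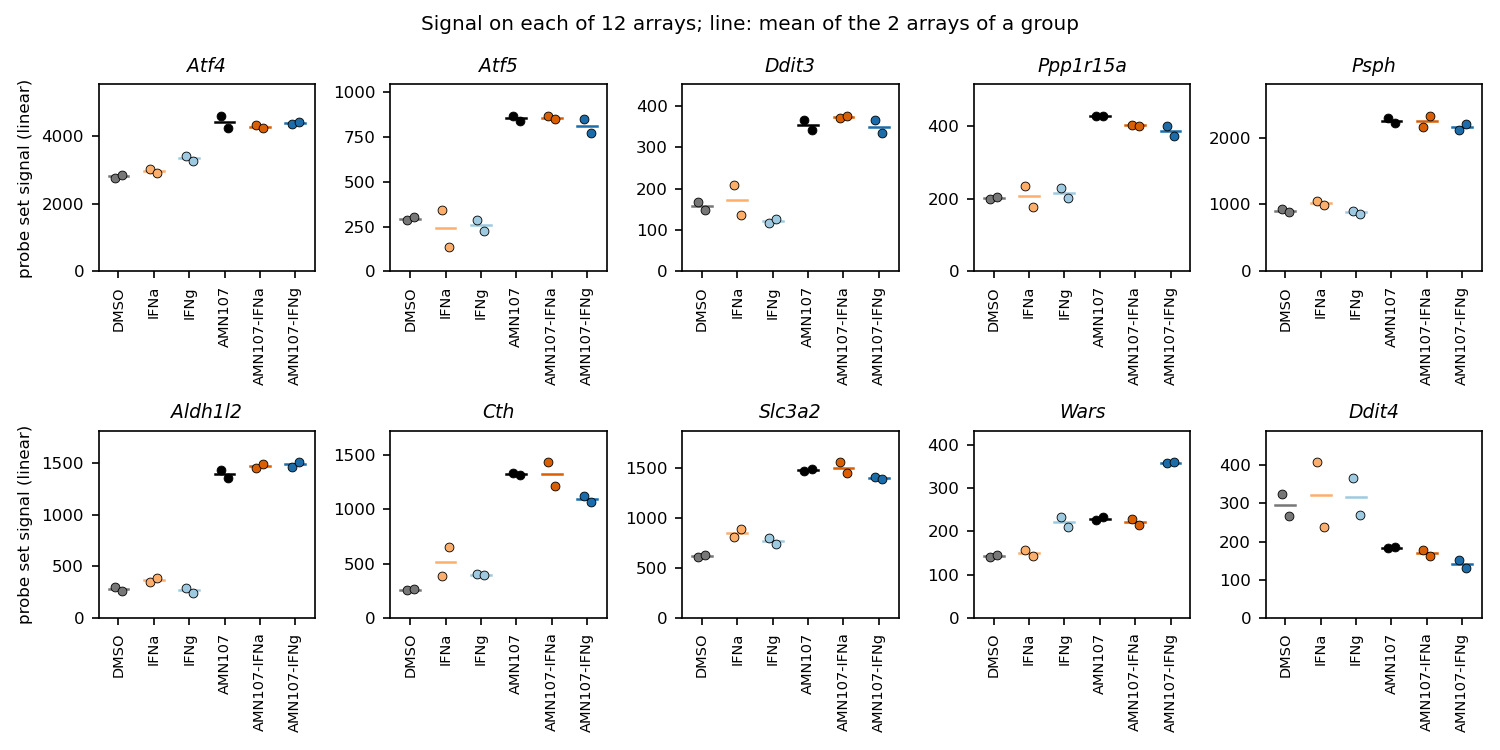
Linear probe set signal (vertical axis) on each of the 12 arrays for 10 members, by group, with a line at the mean of the 2 arrays of a group. In 8 panels the 6 AMN107 arrays all lie above the other 6, in the Ddit4 panel all below, and in the Wars panel the AMN107-IFNg arrays are the highest, at 357 and 359.5.

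Among the 6 genes that brake or carry out the stress response, 3 rose on average and Ddit4 fell. Ppp1r15a encodes GADD34, which guides a phosphatase to eIF2alpha and so reverses the signal that favours ATF4. Its signals were 199 and 205 with DMSO, 234 and 179 with IFNa, 228 and 201 with IFNg, 429 and 427 with AMN107, 405 and 399.9 with AMN107-IFNa, and 401 and 373 with AMN107-IFNg. Both arrays of every AMN107 group exceeded every array without the drug. Ppp1r15a rose by 0.94 on average (SE 0.07, limma adjusted p = 3.07e-06), 2.07-fold without interferon, 1.93-fold with IFNa and 1.77-fold with IFNg.

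Ddit4 encodes REDD1, an inhibitor of mTORC1 that ATF4 can induce, and it went the opposite way from Ddit3 and Ppp1r15a. Its signals were 325 and 268 with DMSO, 408 and 238 with IFNa, 365 and 268 with IFNg, 183 and 184 with AMN107, 178 and 162 with AMN107-IFNa, and 152 and 132 with AMN107-IFNg. The arrays of a group without AMN107 differed from each other, but all 6 lay above the AMN107 arrays. The AMN107 effect on Ddit4 was 0.633-fold without interferon, 0.558-fold with IFNa and 0.467-fold with IFNg. On average Ddit4 fell by 0.87 (SE 0.13, limma adjusted p = 2.9e-04), and with IFNg it was the member that fell at least 2-fold (0.320% of all genes). The call without interferon (limma adjusted p = 0.0395) was lost on leaving out any DMSO, AMN107, AMN107-IFNa or AMN107-IFNg array (0.0558 to 0.221). The call with IFNa was lost without either AMN107-IFNa array (0.0735 and 0.1003), and the call with IFNg without IFNg replicate 1 (0.067) or AMN107-IFNg replicate 2 (0.0561).

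Trib3, a pseudokinase that binds ATF4 and CHOP and limits their activity, rose by 0.66 on average (SE 0.06, limma adjusted p = 1.69e-05), with signals of 179 to 263 on the arrays without AMN107 and 310.2 to 343 on those with it. Eif4ebp1, whose protein holds back cap-dependent translation, rose by 0.63, and its 2 other probe sets gave 0.34 and -0.09. Sesn2, a leucine-binding inhibitor of mTORC1, gave 0.39 on average, 0.79 without interferon, and did not pass in either (limma adjusted p = 0.0674 and 0.0511). Its other probe set gave 0.05 on average and 0.02 without interferon. Chac1, which degrades glutathione, gave 0.07 on average and rose by 0.27 without interferon.

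The serine and one-carbon enzymes held the member with the highest averaged effect of all 37. Of the 7 enzymes 6 rose on average and none fell, with a median of 0.53. Aldh1l2, a mitochondrial enzyme that oxidises formyl-tetrahydrofolate and yields NADPH, had signals of 300.5 and 262 with DMSO, 349 and 388 with IFNa, 288 and 243 with IFNg, 1436 and 1354 with AMN107, 1457 and 1489 with AMN107-IFNa, and 1467 and 1510.0 with AMN107-IFNg. The highest array without AMN107 read 388 and the lowest with it 1354. Aldh1l2 rose 4.85-fold without interferon, 3.93-fold with IFNa and 5.48-fold with IFNg (average 2.24, SE 0.06, limma adjusted p = 4.68e-09), which placed it at rank 4 of the 12192 genes by averaged effect.

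Psph, the phosphatase of the last step of serine synthesis, had signals of 929.9 and 882 with DMSO, 1058 and 996 with IFNa, 904 and 862 with IFNg, 2289 and 2217 with AMN107, 2154 and 2328 with AMN107-IFNa, and 2116 and 2196 with AMN107-IFNg. The 2 ranges were again separate and narrow. It rose by 1.31, 1.12 and 1.28 in the 3 states and by 1.235 on average (SE 0.04, limma adjusted p = 1.77e-08, rank 61). The earlier steps rose less. Phgdh, which commits a glycolytic intermediate to serine, rose by 0.35 and Psat1, the transaminase between them, by 0.29. Other probe sets of Phgdh gave 0.23 to 1.31, and the second one of Psat1 gave -0.07. Psat1 passed in the state without interferon (0.51) and not with IFNa (0.13) or IFNg (0.23).

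The mitochondrial folate steps that pass the serine carbon onward were also higher. Shmt2, which splits serine into glycine and a one-carbon unit, rose by 0.53 on average and in each state. Mthfd2, which oxidises that unit, rose by 0.62 on average but did not pass with IFNa (0.50, limma adjusted p = 0.0984). The 4 probe sets of Shmt2 ran from 0.46 to 1.39, all of them higher. Mthfd1l, which releases formate from the mitochondrion, gave 0.04 on average (limma adjusted p = 0.737), and 0.22, -0.36 and 0.27 in the 3 states.

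The other amino acid enzymes rose in 3 of 4 cases. Cth, cystathionine gamma-lyase, which makes cysteine from cystathionine, had signals of 254 and 261 with DMSO, 381 and 653 with IFNa, 403 and 391 with IFNg, 1334 and 1312 with AMN107, 1433 and 1213 with AMN107-IFNa, and 1123 and 1069 with AMN107-IFNg. The interferon arrays without AMN107 lay between the DMSO and AMN107 arrays, and IFNa replicate 2 was the highest of the arrays without the drug. Cth rose by 2.32 without interferon, by 1.39 with IFNa and by 1.44 with IFNg (average 1.72, SE 0.11, limma adjusted p = 1.05e-06, rank 12). The enzyme before it, Cbs, gave -0.08 on average and did not pass (limma adjusted p = 0.159).

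Asns, asparagine synthetase, rose by 0.52 on average (SE 0.05, limma adjusted p = 1.43e-05), from 1166 to 1666 on the arrays without AMN107 to 1852 to 1971 on those with it. Its effect with IFNa was 0.27, against 0.68 without interferon and 0.60 with IFNg, and its second probe set gave 0.86 on average. The interaction test for this difference with IFNa gave -0.41 (limma adjusted p = 0.156). Aldh18a1, the first enzyme of proline synthesis, rose by 0.24 on average and passed singly in the state with IFNg (0.40).

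**Figure D3:**
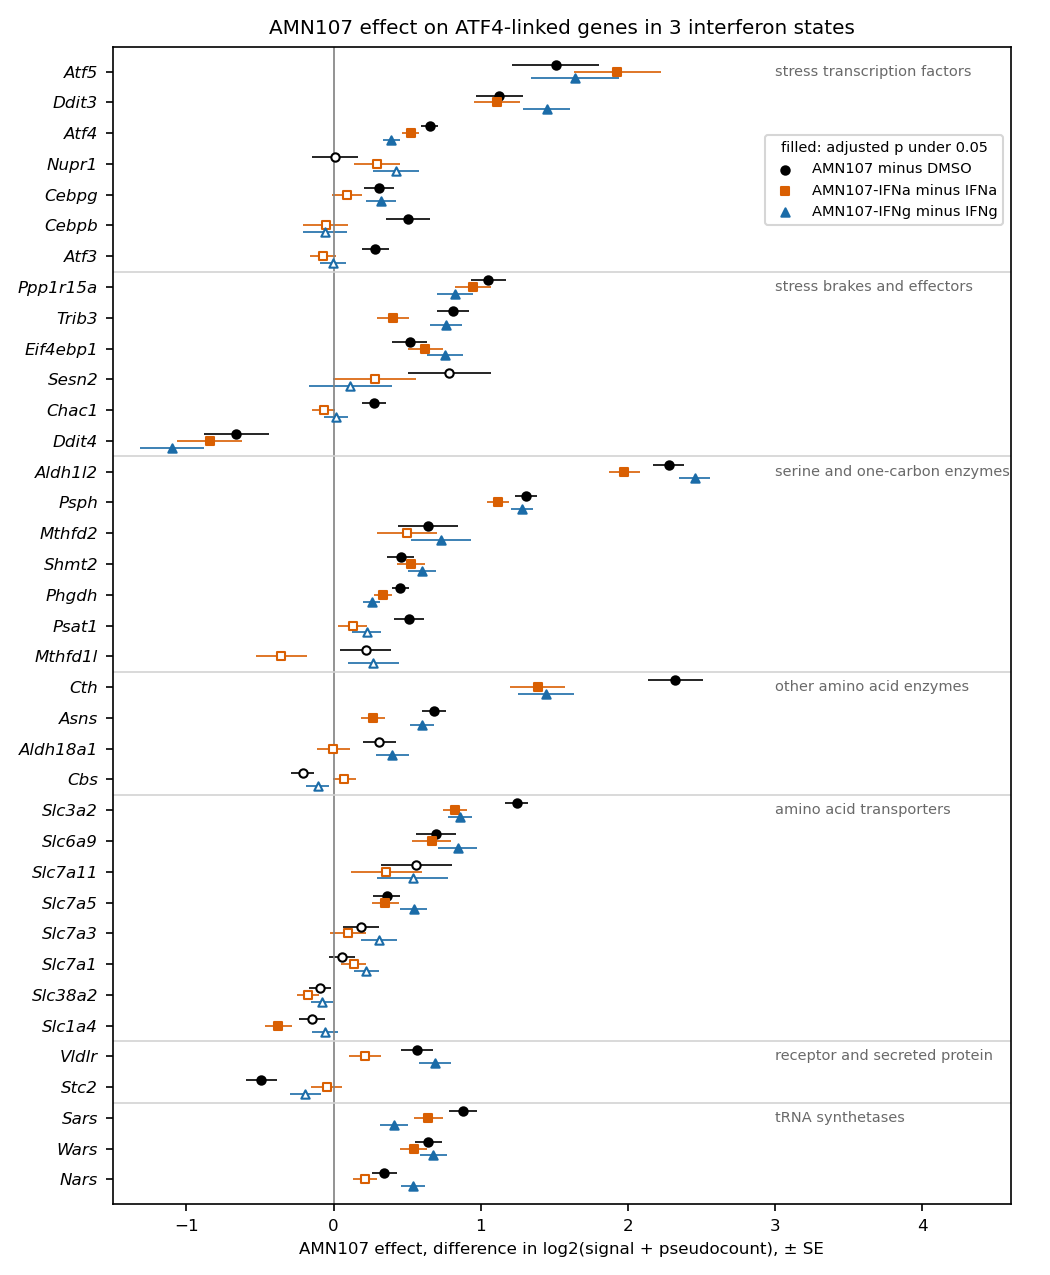
AMN107 effect (horizontal axis, difference in log2 of signal plus the pseudocount, with 1 SE either side) for the 37 members in the 3 interferon states, grouped by role. Filled symbols passed the limma test at an adjusted p under 0.05. Aldh1l2, Cth and Atf5 lie farthest to the right and Ddit4 lies to the left of 0 in all 3 states.

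Of the 8 amino acid transporters 6 were higher and 2 lower on average, where 26.0% and 22.0% of all genes were. Slc3a2, the CD98 heavy chain that carries several light-chain transporters to the cell surface, had signals of 611 and 631 with DMSO, 807 and 886 with IFNa, 801 and 738 with IFNg, 1472 and 1493 with AMN107, 1562 and 1449 with AMN107-IFNa, and 1415 and 1388 with AMN107-IFNg. The lowest AMN107 array read 1388 and the highest of the rest 886, with DMSO lowest. Slc3a2 rose 2.37-fold without interferon, 1.77-fold with IFNa and 1.81-fold with IFNg (average 0.98, SE 0.05, limma adjusted p = 1.61e-07).

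The light chains that pair with it rose by smaller amounts. Slc7a5 (LAT1), the leucine exchanger, rose by 0.42 on average and in each state, by 0.36, 0.35 and 0.54. Slc7a11 (xCT), the cystine importer, rose by 0.49 on average (SE 0.14, limma adjusted p = 0.0154) but passed in no single state. Its other probe set gave 0.72 on average and passed without interferon (0.62) and with IFNg (1.03). That one exceeded the array median on 5 arrays, all with AMN107, and read 13.55 to 19.81 without the drug. The one used for the gene exceeded it on 7, of which only IFNa replicate 2 lacked AMN107. Slc7a11 thus passed the filter on low signals mainly through AMN107 arrays, so neither rise is independent of that filter. Within the AMN107-IFNa group the 2 arrays of Slc7a11 differed by 0.68 on the log2 scale, the largest such difference in that group among the members. Of the carriers outside this family of pairs, Slc6a9, the glycine importer, rose by 0.74 on average and in each state.

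The cationic amino acid carriers Slc7a1 and Slc7a3 rose by 0.14 and 0.20 on average and passed in no single state. The transporters Slc1a4 (alanine, serine and cysteine) and Slc38a2 (SNAT2, small neutral amino acids) fell by 0.19 and 0.11. For Slc38a2 this was a narrow call (limma adjusted p = 0.0479), the same probe set did not pass in the fit of single probe sets, and another gave 0.69 and passed. The other probe sets of Slc1a4 gave 0.08 and 0.14, and neither passed.

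The 3 tRNA synthetases of the list, which charge tRNA with tryptophan, asparagine and serine, all rose on average. Sars rose by 0.64, Wars by 0.62 and Nars by 0.37, and Nars alone did not pass with IFNa (0.22, limma adjusted p = 0.0803). All tested probe sets of these genes were called higher, with averaged effects from 0.37 to 0.81. Of the last 2 members, Vldlr, a lipoprotein receptor that ATF4 induces, rose by 0.49, and Stc2, a secreted glycoprotein, fell by 0.24, by 0.49 in the state without interferon.

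**Figure D4:**
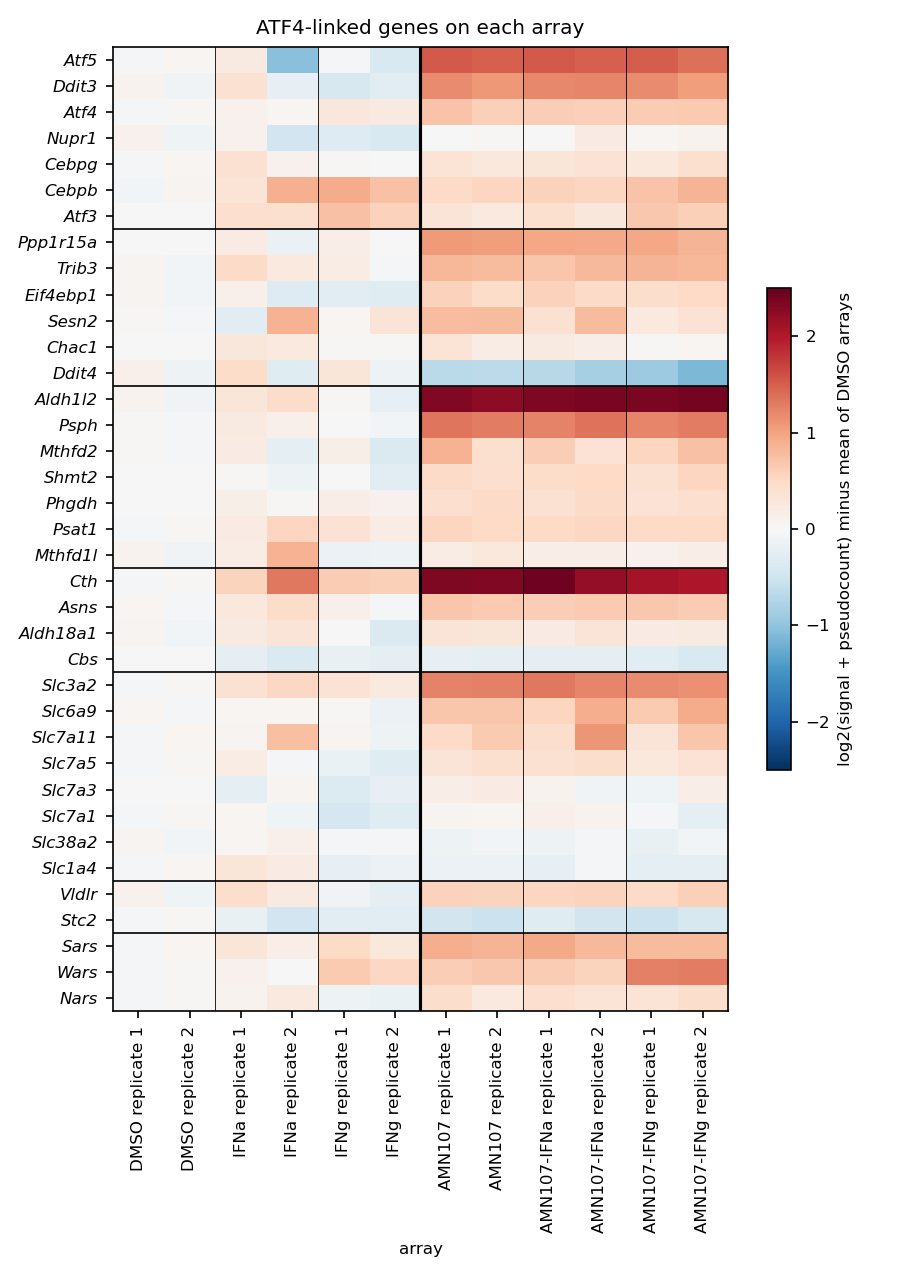
Each row is a member and each column an array, coloured by log2(signal + pseudocount) minus the mean of the 2 DMSO arrays of that member. The 6 AMN107 columns on the right are red for most members, deepest for Aldh1l2 and Cth, and blue for Ddit4, and IFNa replicate 2 departs from its partner array for several members such as Atf5.

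The responses to the interferons alone were compared with DMSO. With IFNg 6 members rose and 1 fell against DMSO (6.12% and 2.93% of all genes). Cebpb rose by 0.84, Atf3 by 0.65, Wars by 0.59, Sars by 0.38, Slc3a2 by 0.30 and Atf4 by 0.25, and Slc7a1 fell by 0.36. In the fit of single probe sets the second Cebpb probe set rose by 1.90. The other one of Sars gave 0.60, and those of Wars gave 0.52 to 0.79. By contrast, the other probe sets of Atf4 gave 0.06 and -0.17, and that of Slc7a1 gave 0.09. With the mean over a gene's probe sets, Atf4 gave 0.05 and Slc7a1 -0.14, and neither passed (limma adjusted p = 0.793 and 0.521). Leaving out any 1 of the DMSO or IFNg arrays gave fewer members called, with the matching shares of all genes not given here. Without both IFNa arrays 15 members were called, 9 of them higher and 6 lower, where 16.2% and 14.4% of all genes were. Quantile normalization gave 4 members higher and 1 lower, with 686 genes higher and 899 lower overall in place of 746 and 357.

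With IFNa 8 members rose and 1 fell against DMSO (12.9% and 4.70% of all genes). Cth rose by 0.93, Cebpb by 0.61, Slc3a2 by 0.44, Atf3 by 0.41, Aldh1l2 by 0.38, Psat1 and Asns by 0.37 and Trib3 by 0.35, and Cbs fell by 0.30. No member passed in limma without DMSO replicate 1 or DMSO replicate 2, or in a fit of these 2 groups alone, whereas 18 had an unadjusted p under 0.05 in the fit of all arrays (39.7% of all genes). Leaving out either IFNa array gave more members called, and leaving out either IFNg array gave fewer. The matching shares of all genes are not given here, so these changes are not read as results about the members. Quantile normalization gave 2 members higher and 1 lower, with 469 genes higher and 580 lower overall in place of 1567 and 573. Median centring gave 16 members higher and 0 lower, with 2963 and 328 overall.

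The responses to the interferons were also compared in cells given AMN107. Limma called 0 of 37 members for IFNa under AMN107, 0 of them also at an unadjusted p under 0.05, where 0.254% of all genes were called and 2.88% had an unadjusted p under 0.05. Their differences ran from -0.20 (Sesn2) to 0.21 (Slc7a11). For IFNg under AMN107 limma called 1 member, Wars (2.49% of all genes higher), and 4 had an unadjusted p under 0.05 (9.18% of all genes). No member was called without AMN107 replicate 1, and more were called without either IFNa array, with the matching shares of all genes not given here. Without both IFNa arrays 3 were higher (Atf3, Cebpb and Wars, with 4.81% of all genes) and 3 lower (Chac1, Sesn2 and Cth, with 2.36%). The count was 8 with array weights and 8 in a fit of the groups compared, again without the shares of all genes.

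Wars was singled out after its values were seen. Interferon gamma is a known inducer of this tryptophanyl-tRNA synthetase. Its signals were 141 and 146 with DMSO, 156 and 142 with IFNa, 232 and 209 with IFNg, 226 and 233 with AMN107, 228 and 215 with AMN107-IFNa, and 357 and 359.5 with AMN107-IFNg. The IFNg arrays and the AMN107 arrays overlapped, and the AMN107-IFNg arrays lay above all others. Wars rose with IFNg by 0.59 without AMN107 and by 0.62 (SE 0.09, limma adjusted p = 0.00287) with it, and rose with AMN107 by 0.64 without interferon and by 0.68 with IFNg. The interaction was 0.03 (limma adjusted p = 0.953). The call for IFNg under AMN107 was lost without AMN107 replicate 1 (limma adjusted p = 0.0535). In the fit of single probe sets, the other Wars probe sets gave IFNg responses of 0.52 to 0.79 without AMN107 and 0.48 to 0.63 with it. Of these, only the one at 0.76 and 0.48 passed, in both settings.

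Whether the AMN107 effect itself differed between states was tested as an interaction. With IFNa limma called 0 members (0.205% of all genes in either direction), and 12 had an unadjusted p under 0.05 (23.12% of all genes), 10 of them with a negative interaction. Leaving out either IFNa array gave members called, with more of them without IFNa replicate 1. In that fit the array with low 5' signal stood for its whole group. The matching shares of all genes are not given here, so this is not read as a result about the members. With IFNg limma called 0 (1.03% of all genes). An unadjusted p under 0.05 was found for 8 members (12.63% of all genes), each of the 8 with a negative interaction. In the fit of single probe sets the second Cebpb probe set was called for the interaction with IFNg (-1.80).

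Without both IFNa arrays, whose replicates differed more than those of other groups (SD of the member differences 0.448 against 0.104 to 0.179), limma called 8 members for the IFNg interaction. Of these 7 had a smaller AMN107 effect with IFNg (9.33% of all genes) and 1 a larger one (3.62%). Cth gave -0.88 (limma adjusted p = 2.25e-05), Sesn2 -0.67, Cebpb -0.56, Sars -0.47, Slc3a2 -0.39, Psat1 -0.29 and Atf4 -0.26, while Nupr1 was the one with the larger effect. In the fit of all arrays the Cth value was also -0.88, with an adjusted p = 0.187. In the fit of single probe sets on all arrays, the other probe set gave an IFNg interaction of 0.01 for Sesn2 and 0.02 for Psat1. The other probe sets of Atf4 gave 0.03 and 0.08, so these 3 results depend on the probe set. Those of Cebpb, Sars and Nupr1 kept the sign, at -1.80, -0.70 and 0.52.

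At the level of single probe sets 54 of 79 were higher and 4 lower in the averaged effect (25.9% and 20.0% of all 24363 tested). Of 25 members with several tested probe sets, 13 had all of them called higher and 0 were called in both directions. The Cebpg probe set at 0.63 and the Slc7a11 one at 0.72 exceeded the array median on AMN107 arrays only. Their rises are not independent of the filter on low signals. Both are counted among the 54, and both genes among the 13. In 20 of the 25 all probe sets had one sign. The exceptions in sign were Atf4, Eif4ebp1, Psat1, Slc38a2 and Slc1a4. For many members a dimmer probe set gave a larger effect than the one used for the gene. Among them were Phgdh, Shmt2, Cebpb, Cebpg, Asns, Slc38a2, Slc7a11, Aldh18a1, Sars, Wars and Nars. Of these, Phgdh, Shmt2 and Aldh18a1 also had a dimmer probe set with a smaller effect. The dimmer probe sets gave smaller effects for others, among them Atf4, Eif4ebp1, Psat1, Mthfd2, Slc6a9, Sesn2, Ddit3 and Trib3.

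**Figure D5:**
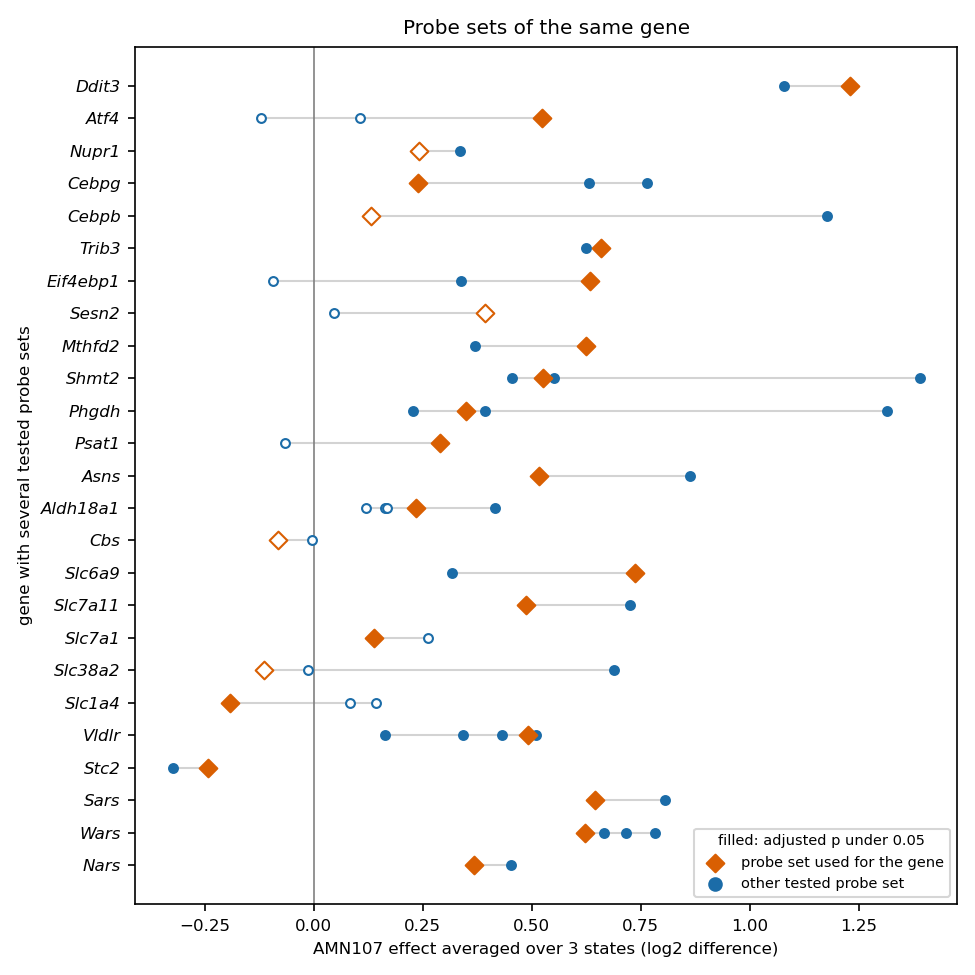
Averaged AMN107 effect (horizontal axis, log2 difference) of each tested probe set for the 25 members that have several, from the fit of single probe sets, with diamonds for the probe set used for the gene. Filled symbols passed at an adjusted p under 0.05. The points of Ddit3, Trib3, Wars and Nars lie close together, and those of Cebpb, Phgdh, Shmt2 and Slc38a2 lie far apart.

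Other genes of the pathway were taken from a list chosen by function. Of 48 tested, 20 were higher and 10 lower in the averaged effect, with a median of 0.12, where 26.0% of all genes were higher and 22.0% lower. Their difference from the members was not tested. Of 15 other cytosolic tRNA synthetases 9 were higher and 2 lower, with Eprs at 0.71, Cars at 0.64 and Hars at -0.36. Of 8 other folate and methionine enzymes 3 were higher and 3 lower, with the cytosolic enzyme Mthfd1 at -0.36. Of 10 other amino acid enzymes and transporters 3 were higher and 2 lower, with glutamine synthetase (Glul) at 0.66 and the alanine transaminase Gpt2 at 0.52. Of 8 other genes linked to ATF4 or CHOP 2 were higher and 2 lower, and Gadd45a, a growth arrest gene, rose by 1.17 (1.62, 0.84 and 1.04 in the 3 states).

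The kinases that phosphorylate eIF2alpha did not move as one. Eif2ak2 encodes PKR, an interferon-induced sensor of double-stranded RNA. It rose by 1.97 with AMN107 in the absence of interferon, by 1.78 with IFNa and by 2.12 with IFNg against DMSO, and by 1.09 in the averaged AMN107 effect. In the interferon states its AMN107 effect was 0.64 and 0.67 and did not pass (limma adjusted p = 0.106 and 0.105). Eif2ak1 (HRI) fell by 0.24 on average, while Eif2ak3 (PERK) gave -0.24 and Eif2ak4 (GCN2) -0.22 and neither passed. Impact, an inhibitor of GCN2, rose by 0.47 and Gcn1, which activates GCN2, by 0.44.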

How the data were processed

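RNA from 12 samples, 2 per group, was measured on Affymetrix mouse arrays. The deposited values are linear probe set intensity values, made with MAS5 per the submitters' processing notes, with version, settings and scaling not given in the sources used here. Probe sets were named from the platform annotation. Values were taken as log2(signal + 8.66), the addend being the mean 25th percentile of the arrays, with no further normalization. Tested probe sets had a signal over the array median on 2 or more of the 12 arrays, and the one with the highest mean represented a gene. As a result, a gene high in 1 group only could pass. Limma 3.58.1 in R 4.3.3 (lmFit, eBayes with trend) fitted 1 mean per group to all 12 arrays, two-sided, with Benjamini-Hochberg adjustment over 12192 genes. The code was tested on simulated data. Array number limits the precision. The members and lists were chosen with earlier results of these data known.

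Values on every array are given for Atf4 and for members past the test with a log2 difference of at least 1 in an AMN107 or interferon comparison. Wars was added after its values were seen. Alternatives were another pseudocount, filter, normalization, probe set rule, array weights, fewer arrays and the replicate number as a block. Replicate numbers did not pair the arrays: over 15 pairs of groups the correlation of deviations ran from -0.143 to 0.312, above 0.1 in 4. A motif was searched in RefSeq promoter windows with no test, and 7 members had no promoter entry.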

Additional observations from a re-analysis of the deposited data

Results flagged for a closer look

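Among the other pathway genes, Bcat2, the mitochondrial branched-chain transaminase, had an AMN107 effect that differed between states: it was 0.55 without interferon and -0.39 with IFNg, and the limma interaction of AMN107 and IFNg was -0.94 (SE 0.16, adjusted p = 0.0253).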

How the results depend on the processing

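None of the single-gene values recomputed under the alternatives changed sign, while a count of members has no sign to change. Single probe sets did differ in sign for Atf4, Eif4ebp1, Psat1, Slc38a2 and Slc1a4. The averaged AMN107 effect of Atf4, Atf5, Ddit3, Ddit4, Ppp1r15a, Psph, Aldh1l2, Cth and Slc3a2 kept its call in 189 of 189 values. All of these but Atf4 were chosen for passing with a log2 difference of at least 1 in these same arrays. Their stability therefore follows in part from that choice. The averaged effects of the other members were not recomputed one by one. Leaving out each array in turn gave 19 to 32 members called without interferon, 14 to 26 with IFNa, 17 to 29 with IFNg and 27 to 34 on average. It gave 0 to 19 for IFNa and 2 to 15 for IFNg against DMSO, 0 to 0 for IFNa and 0 to 6 for IFNg under AMN107, and 0 to 16 and 0 to 8 for the interactions with IFNa and IFNg. With array weights the count was 10 for AMN107 with IFNa, 1 for IFNa, 14 for IFNg, 8 for IFNg under AMN107 and 8 for the IFNg interaction. In fits of only the groups compared these counts were 2, 0, 16, 8 and 9, and without both IFNa arrays the last 3 were 15, 6 and 8. IFNa gave 3 members with quantile normalization and 16 with median centring. IFNg under AMN107 gave 2 with the filter at the 75th percentile, and its interaction gave 1 with the mean over a gene's probe sets. The causes were not tested. In this section the matching shares of all genes are not given beside the counts of members. The counts are therefore not read as results about the members. With the replicate number as a block the counts were 29, 20, 22 and 31 for AMN107 without interferon, with IFNa, with IFNg and on average, 9 and 6 for IFNa and IFNg, and 0, 1, 0 and 0 for the rest. Single-gene calls against DMSO were the least stable: 94 of 197 values for IFNa and 38 of 161 for IFNg lost the call. A fit of only the groups compared could not be run for the averaged effect, which uses all groups. With 2 arrays a group and linear signals of unknown scaling, small effects on dim probe sets remain uncertain.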
